A study of Homo sapiens with 12 samples.

Results

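MYEOV depletion in PANC-1 cells was described through mature microRNAs (miRNAs), the short RNAs that direct Argonaute proteins to messenger RNAs. PANC-1 is an established human cell line from a pancreatic ductal adenocarcinoma (PDAC). Its 3 control and 3 MYEOV-siRNA libraries make up 6 of the 12 small RNA libraries of the series, and the other 6 come from AsPC-1, a PDAC line from ascites. MYEOV is a candidate proto-oncogene first found overexpressed in myeloma, and the comparison addresses which miRNAs change when it is depleted. Per the labels, PANC-1 cells were grown in DMEM with fetal bovine serum, siRNA was delivered by lipofection, and small RNA was prepared 48 h later. The labels call the controls WT and untreated, whereas the treatment protocol lists a negative-control siRNA, so whether the controls were transfected is not settled, and the methods give a shorter time than the labels. The protocol also lists a pair of MYEOV siRNAs and does not say which of them each knockdown library received. Nothing in the labels says that the libraries of a group came from separate cultures, so the p-values measure the spread between these libraries, which may be technical. MYEOV mRNA is not read by small RNA libraries, so the degree of knockdown was not checked here.

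A miRNA hairpin can give a mature miRNA from each of its arms, named 5p and 3p. Argonaute usually keeps 1 of them, the guide. Here the arm with the higher mean CPM over the 6 libraries is called the major arm and the other the minor arm, which need not follow the guide, as in miR-106b and miR-424, whose 5p arms were the less abundant. Bases 2 to 8 of the mature miRNA, the seed, pair with target messenger RNAs, and miRNAs that share a seed form a family. Many hairpins lie in clusters that are transcribed as 1 RNA, such as the imprinted cluster at 14q32 in the DLK1-DIO3 region, and MYC is known to activate the miR-17-92 cluster and to repress let-7. In PDAC, miR-21 and the miR-17 family are known as growth-promoting and let-7 as growth-restricting miRNAs.

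The mature sequences shown here belong to the miRNAs on which the results turn. They are RefSeq sequences (GRCh38.p14), printed 5′ to 3′ with the seed in capitals. The miR-17 seed family is shown because 5 of these 6 members, from 3 clusters on 3 chromosomes, were repressed, all but miR-106a-5p.
miR-17-5p: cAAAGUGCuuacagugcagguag
miR-20a-5p: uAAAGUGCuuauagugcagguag
miR-93-5p: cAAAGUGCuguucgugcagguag
miR-106b-5p: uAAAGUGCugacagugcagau
miR-20b-5p: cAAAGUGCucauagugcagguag
miR-106a-5p: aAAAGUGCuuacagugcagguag
The let-7 guides that follow are the 4 of 9 let-7 seed members that were induced, and they differ outside the seed.
let-7i-5p: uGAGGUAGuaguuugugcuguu
let-7f-5p: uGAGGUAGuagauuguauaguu
let-7g-5p: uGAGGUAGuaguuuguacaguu
let-7c-5p: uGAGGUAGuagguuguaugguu
The next miRNAs are 3p arms of the 14q32 cluster, shown because the repressed members include 3 pairs that share a seed. These are miR-154-3p with miR-487a-3p, miR-539-3p with miR-485-3p, and miR-379-3p with miR-411-3p. MiR-376a-3p is added for its LFC, which was second in size among the repressed members, and miR-381-3p as the 1 induced member.
miR-154-3p: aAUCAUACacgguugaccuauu
miR-487a-3p: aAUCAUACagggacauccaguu
miR-539-3p: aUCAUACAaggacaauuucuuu
miR-485-3p: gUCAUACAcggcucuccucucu
miR-379-3p: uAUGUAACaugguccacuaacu
miR-411-3p: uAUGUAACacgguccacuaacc
miR-376a-3p: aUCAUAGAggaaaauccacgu
miR-381-3p: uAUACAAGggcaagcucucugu
The minor arms miR-27a-5p, miR-27b-5p, miR-181a-3p and miR-25-5p are shown because they rose while their major arms had smaller LFCs.
miR-27a-5p: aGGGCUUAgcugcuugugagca
miR-27b-5p: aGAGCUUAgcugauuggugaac
miR-181a-3p: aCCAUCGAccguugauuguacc
miR-25-5p: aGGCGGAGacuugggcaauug
Of the miR-30 3p arms, miR-30a-3p and miR-30e-3p share a seed and miR-30c-2-3p has another. The sequences of miR-1303 and miR-30c-2-3p appear because the lines differed in their change, and that of miR-21-5p because it was the most abundant miRNA.
miR-30a-3p: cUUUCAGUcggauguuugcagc
miR-30e-3p: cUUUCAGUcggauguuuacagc
miR-30c-2-3p: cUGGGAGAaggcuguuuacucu
miR-1303: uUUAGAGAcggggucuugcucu
miR-21-5p: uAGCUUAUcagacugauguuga

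The PANC-1 libraries held 3805084 to 5049361 counted reads in the control and 3928990 to 4931799 in the knockdown group, and 1087 to 1144 miRNAs were listed per library. Values are given as CPM, read counts relative to library size after scaling with TMM factors, as edgeR computes them. These factors were 1.02 to 1.08 in the controls and 0.920 to 0.978 in the knockdown libraries, so the scaling itself differed between the groups. The detection floor was taken as 3 reads, which in these libraries comes to 0.594 to 0.788 unscaled CPM and accounts for counting error alone. Replicate libraries differed by more than counting noise in each pair (chi-square per degree of freedom 18.7 to 69.7). Epithelial markers (the miR-200 family, miR-141 and miR-205) summed to 259 to 286 unscaled CPM in the controls and 225 to 268 in the knockdown libraries, against 50190 to 53840 in AsPC-1, and miR-200c-5p was at 0. The islet marker miR-375 had 10.3 to 12.1 unscaled CPM in the controls and 5.54 to 8.65 in the knockdown libraries and was not DE. Acinar markers summed to at most 0.764 unscaled CPM and blood cell markers to at most 3.10 unscaled CPM, with miR-223-3p at 0. Among the other marker lists, endothelial miR-126-3p rose (1193 to 1407 CPM, edgeR adjusted p = 0.0415) and muscle miR-1-3p rose (124 to 159 CPM, edgeR adjusted p = 0.0174). Each was the only DE member of the 2 tested in its list. The endothelial list summed to 1239 to 1390 unscaled CPM in the controls and 1301 to 1506 in the knockdown libraries, which overlap. The minor arm of miR-126 did not share the rise. Its log2 ratio to miR-126-3p, the major arm, changed by -0.497 (edgeR adjusted p = 0.0330). The neuronal list, mainly miR-9, summed to 4734 to 4998 unscaled CPM in the controls and 3891 to 4146 in the knockdown libraries with no member called. These sums leave out the TMM factors, which differed between the groups. The libraries came from a cultured cell line, and the marker lists were used to state levels only. In AsPC-1 the endothelial list summed to 1584 to 1968 unscaled CPM. Whether other cells contribute to any result was not tested, and in such bulk libraries fewer cells of a type and less RNA per cell cannot be told apart.

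Of 1521 miRNAs listed in PANC-1, 551 passed the filter on low counts, and 121 of them (22.0%) were differentially expressed (DE) at an adjusted p under 0.05 in edgeR's quasi-likelihood test. After MYEOV depletion, 70 miRNAs were induced (12.7% of those tested) and 51 were repressed (9.26%). The changes were small. Only 5 of the 121 DE miRNAs had an absolute log2 fold change (LFC, knockdown minus control) above 1. For 202 miRNAs (36.7%) the 3 control and 3 knockdown values did not overlap, and this held for 105 of the 121 DE miRNAs. Induced miRNAs outnumbered repressed ones under each alternative except scaling by total count only, which shifted the LFC by a median of -0.145. With that scaling, 143 miRNAs were DE, of which 26 were induced (18.2%, against 57.9% with TMM), and with upper-quartile factors 94 were DE, of which 65 were induced (69.2%). Directions are therefore given relative to the TMM scale, on which the median LFC of all miRNAs tested was 0.03. Without knockdown replicate 3, 55 miRNAs were DE, without knockdown replicate 2, 68, and without control replicate 2, 82 (42 induced).

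**Figure D1:**
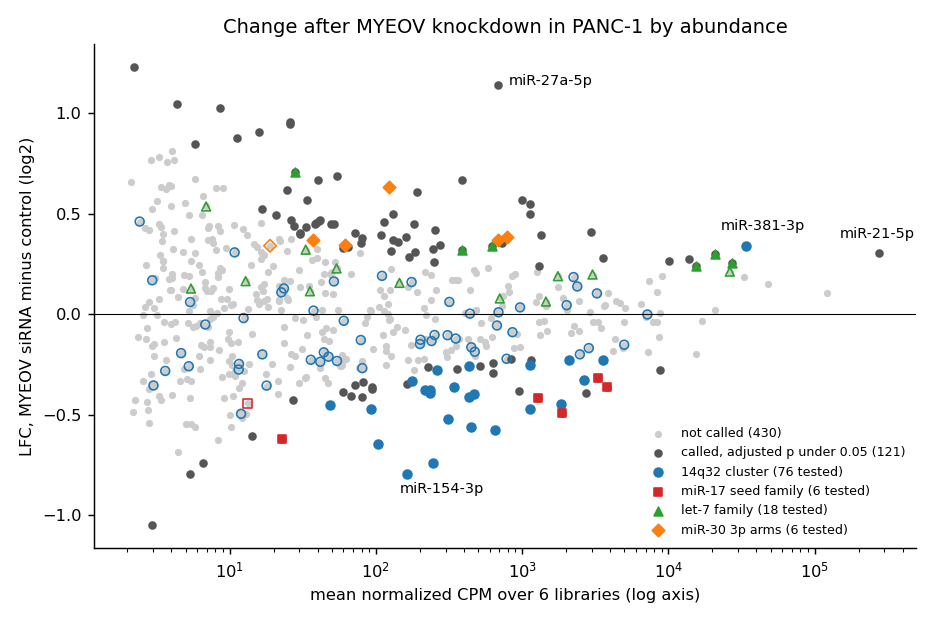
Each point is 1 of the 551 miRNAs tested, with its mean normalized CPM over the 6 PANC-1 libraries on a log axis and its LFC (knockdown minus control) on the vertical axis. Filled coloured symbols are DE members of 4 groups and open ones members that were not DE. The 14q32 members lie mostly below 0, the miR-17 seed family from -0.62 to -0.32, the let-7 family and the miR-30 3p arms above 0, and miR-27a-5p stands at 1.14.

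The most abundant miRNAs gained reads. The 15 miRNAs above 10000 CPM together held 66.9%, 67.3% and 68.6% of the reads in the control libraries and 70.3%, 71.2% and 71.8% in the knockdown libraries. The groups did not overlap (two-sided exact permutation test, p = 0.1, the smallest that 3 against 3 libraries allow). In this class 7 miRNAs were induced and 0 repressed on the TMM scale (edgeR, 46.7% DE). These calls depended on the scaling. MiR-21-5p, miR-381-3p, let-7i-5p, let-7f-5p, miR-27a-3p and miR-151a-3p were not DE with total-count or upper-quartile scaling, and let-7g-5p not with total-count scaling. Between 1000 and 10000 CPM, 6 of 70 were induced and 13 repressed, and the class went from 25.7% to 26.9% of reads in the controls to 22.9% to 24.2% in the knockdown libraries. In the class from 100 to 1000 CPM, 24 of 133 were induced and 23 repressed. From 10 to 100 CPM, 29 of 180 were induced and 12 repressed. Below 10 CPM, 4 of 153 were induced and 3 repressed, and the median standard error of the LFC there was 0.30, against 0.09 above 10000 CPM, so that class could show large changes only.

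**Figure D2:**
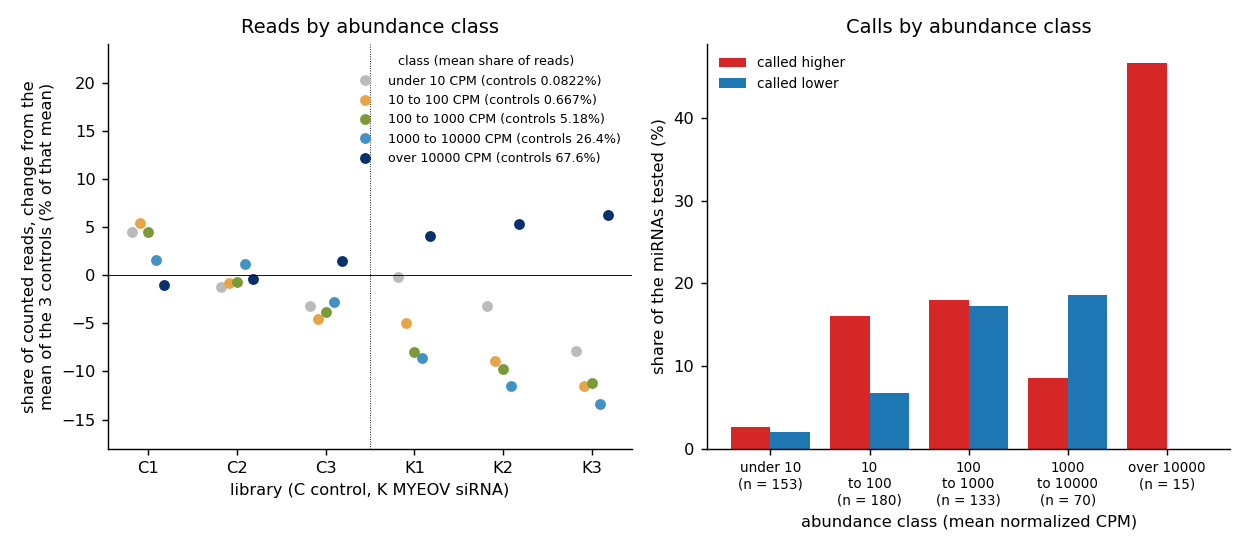
The left panel gives, for 5 classes of mean abundance, the share of counted reads in each library as its change from the mean of the 3 controls, in percent of that mean. The right panel gives the share of miRNAs in each class called higher or lower. The class above 10000 CPM lies above 0 in the 3 knockdown libraries, and its DE members, called on the TMM scale, were all induced. The classes from 10 to 10000 CPM lie below their controls.

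MiR-21-5p, an abundant miRNA known to repress the tumor suppressor PDCD4, accounted for 3.04 of the 3.48 percentage points that the 10 most abundant miRNAs gained on average. It held 26.7%, 25.0% and 26.1% of all reads in the control libraries and 27.4%, 29.5% and 30.1% in the knockdown libraries, and the groups did not overlap (two-sided exact permutation test, p = 0.1). On the CPM scale it had 246944, 236863 and 256909 CPM in the control libraries and 280026, 308236 and 326630.3 CPM in the knockdown libraries (LFC 0.30, standard error 0.10, edgeR adjusted p = 0.0268). It was not DE with total-count or upper-quartile scaling, nor without control replicate 2, knockdown replicate 2 or knockdown replicate 3 (LFC 0.25 to 0.36 over the fits that left out 1 library, largest edgeR adjusted p = 0.154). Its minor arm, miR-21-3p, was DE in each of those fits that left out 1 library. MiR-21-3p had 1017, 879.7 and 867 CPM in the control libraries and 1197, 1398 and 1444 CPM in the knockdown libraries (LFC 0.55, standard error 0.09, edgeR adjusted p = 3.37e-05). The next 9 miRNAs in abundance together held 33.2%, 35.3% and 35.4% in the controls and 35.8%, 34.8% and 34.7% in the knockdown libraries, which overlap. Among them, let-7i-5p, let-7f-5p and miR-381-3p rose, whereas miR-100-5p, miR-10a-5p, miR-26a-5p, let-7a-5p, miR-27b-3p and miR-7-5p did not pass the threshold (LFC -0.04 to 0.21).

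Of the 51 repressed miRNAs, 23 came from the 14q32 cluster, the largest number from 1 locus. In these files 89 of its miRNAs were listed in PANC-1 and 76 were tested, of which 23 fell and 1 rose (9.26% of all miRNAs tested fell). The median LFC of the 76 was -0.20, and that of the 475 miRNAs outside the cluster was 0.06, with 69 induced and 28 repressed. The cluster made up 8.77% to 9.19% of the control reads and 8.17% to 8.85% of the knockdown reads. Without miR-381-3p, its most abundant member, it made up 5.82%, 5.97% and 5.69% in the controls and 4.84%, 4.85% and 4.70% in the knockdown libraries, which do not overlap. In the whole cluster the number of repressed members ranged from 15 without knockdown replicate 2 to 37 with total-count scaling, and its median LFC stayed negative in each alternative.

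Most of the repressed members were 3p arms. Of 40 tested 3p arms, 19 fell and 1 rose (median LFC -0.26), and of 32 tested 5p arms, 2 fell and 0 rose (median LFC -0.10). Over all miRNAs outside 14q32, 9 of 204 3p arms and 13 of 202 5p arms fell. The largest decrease among miRNAs of at least 100 CPM was that of miR-154-3p, with 213, 210.2 and 198 CPM in the control libraries and 119.7, 124 and 115 CPM in the knockdown libraries (LFC -0.79, standard error 0.09, edgeR adjusted p = 1.83e-07). Each knockdown library lay far below each control library. Its opposite arm, miR-154-5p, had 37.6, 38.1 and 35.7 CPM in the control libraries and 41.4, 38.1 and 33.7 CPM in the knockdown libraries (LFC 0.02, edgeR adjusted p = 0.938), and these groups overlap. MiR-154-5p made up 15.0%, 15.4% and 15.3% of the hairpin's reads in the control and 25.7%, 23.6% and 22.7% in the knockdown libraries. The hairpin MIR154 lies on chromosome 14 from 101526092 to 101526175 (GRCh37, plus strand), within the non-coding host gene MEG9.

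MiR-487a-3p, which shares the seed of miR-154-3p, had 135, 119.7 and 123 CPM in the control libraries and 68.2, 78.1 and 94.1 CPM in the knockdown libraries (LFC -0.65, standard error 0.11, edgeR adjusted p = 7.38e-05). MiR-376a-3p had 337, 326 and 263 CPM in the control libraries and 202, 183 and 169 CPM in the knockdown libraries (LFC -0.74, standard error 0.10, edgeR adjusted p = 1.92e-06). In both, the groups were apart. MiR-539-3p had 800.1, 786 and 759.6 CPM in the control libraries and 515, 489 and 569.9 CPM in the knockdown libraries (LFC -0.58, standard error 0.08, edgeR adjusted p = 1.05e-05), and miR-485-3p, with the same seed, had 237, 259 and 235 CPM in the control libraries and 204, 182 and 178 CPM in the knockdown libraries (LFC -0.38, edgeR adjusted p = 0.00342). In both, each knockdown library lay below each control. MiR-379-3p, at the 5′ end of the large group of hairpins, had 419.6, 346 and 335 CPM in the control libraries and 276, 256 and 234 CPM in the knockdown libraries (LFC -0.52, edgeR adjusted p = 0.000154), while its major arm miR-379-5p had 3165, 3014 and 3223 CPM in the control libraries and 3578, 3332 and 3185 CPM in the knockdown libraries (LFC 0.10, edgeR adjusted p = 0.385). The 5p groups overlap and the 3p groups do not. MiR-411-3p, of the same seed as miR-379-3p and named after its values were seen, went from a mean of 535 to 406 CPM (LFC -0.40, edgeR adjusted p = 0.00102), and its 5p arm from 1986 to 2048 CPM (LFC 0.04, edgeR adjusted p = 0.765).

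MiR-543 and miR-495-3p, neighbours in the cluster, were repressed members of higher abundance. Above miR-543 in mean CPM lay miR-494-3p (3584 CPM, LFC -0.23), miR-369-3p (2661 CPM, LFC -0.33) and miR-889-3p (2101 CPM, LFC -0.23), all repressed. MiR-543 had 1964, 2249 and 2192 CPM in the control libraries and 1595, 1592 and 1504 CPM in the knockdown libraries (LFC -0.45, edgeR adjusted p = 0.000189). MiR-495-3p had 1207, 1316 and 1395 CPM in the control libraries and 932, 903 and 992 CPM in the knockdown libraries (LFC -0.47, edgeR adjusted p = 0.000125), and in neither did the groups overlap. MiR-1185-1-3p had 516, 541 and 531 CPM in the control libraries and 326, 375 and 374 CPM in the knockdown libraries (LFC -0.56, edgeR adjusted p = 1.60e-05). The hairpins from MIR379 to MIR656, on chromosome 14 from 101488366 to 101533138 (GRCh37, 32 hairpins with a position), gave 50 tested miRNAs with a single position on the plus strand, of which 18 fell and 1 rose. MiR-380-3p, whose hairpin the annotation places in the same stretch on the minus strand, fell too (LFC -0.45), as did miR-376a-3p and miR-329-3p (LFC -0.26), each with a pair of hairpins there. The group upstream, from MIR493 to MIR136 (101335397 to 101351125, 8 hairpins), gave 14, of which 2 fell, miR-431-5p and miR-433-3p. MiR-381-3p was the exception in direction. It had 27201, 28675 and 34453 CPM in the control libraries and 34017, 35069 and 45143 CPM in the knockdown libraries (LFC 0.34, standard error 0.10, edgeR adjusted p = 0.0197). The groups overlap, since control replicate 3 lay above knockdown replicate 1, and it was not DE without control replicate 2 or knockdown replicate 3 (LFC 0.20 to 0.43, largest edgeR adjusted p = 0.227) or with total-count or upper-quartile scaling. Abundant members such as miR-493-5p (7196 to 7185 CPM) and miR-134-5p (687 to 691 CPM) did not pass the threshold.

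**Figure D3:**
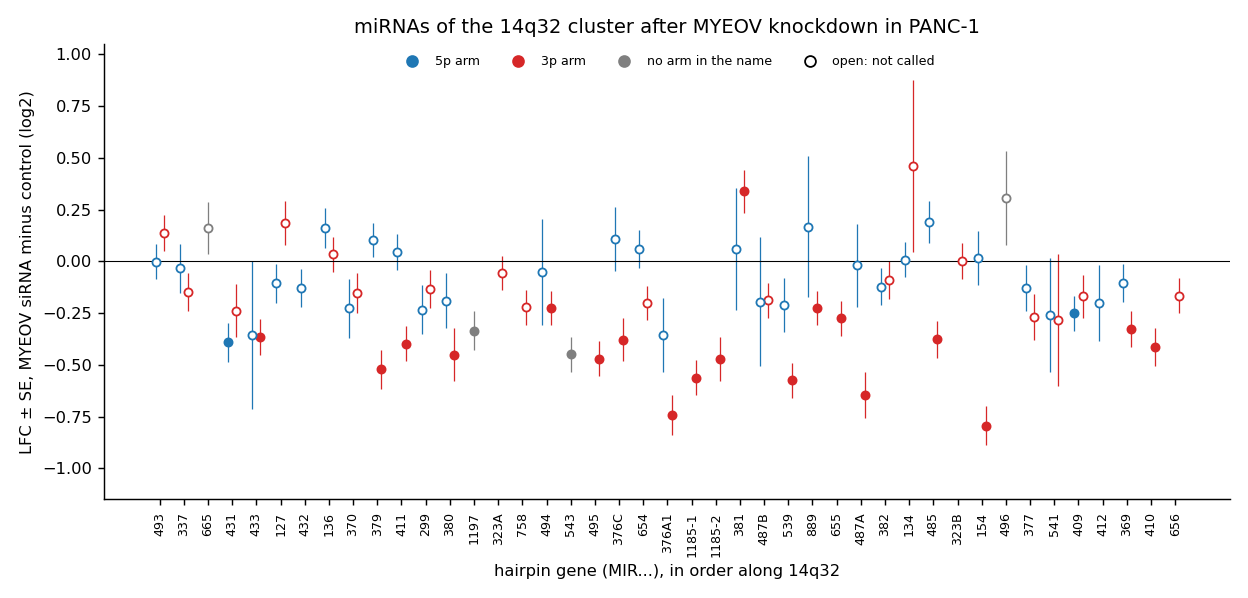
LFC (knockdown minus control) with its standard error for the 14q32 miRNAs that could be placed at a hairpin, in order along the chromosome from MIR493 to MIR656, with 5p arms in blue, 3p arms in red and names without an arm in grey (miR-376a-3p, which has a pair of hairpins, is drawn at MIR376A1). Filled symbols are DE. Most filled symbols are red and below 0, from -0.23 to -0.79, the blue filled symbols are miR-431-5p and miR-409-5p, miR-381-3p is the filled symbol above 0 at 0.34, and most 5p arms are open and near 0.

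The miR-17 seed family was repressed across loci. Of its 6 tested members 5 fell, against 9.26% of all miRNAs tested, the other being miR-106a-5p, and the median LFC was -0.43. MiR-17-5p of the miR-17-92 cluster, an oncogenic miRNA that promotes the cell cycle, had 2557, 2071 and 1911 CPM in the control libraries and 1803, 1478 and 1372 CPM in the knockdown libraries (LFC -0.49, edgeR adjusted p = 0.000680). Knockdown replicate 1 was the highest of the knockdown group and still below each control. MiR-93-5p had 4848, 4149.7 and 3954 CPM in the control libraries and 3746, 3249 and 3073 CPM in the knockdown libraries (LFC -0.36, edgeR adjusted p = 0.00471), and miR-106b-5p had 1688, 1355 and 1369 CPM in the control libraries and 1192, 1011 and 1105 CPM in the knockdown libraries (LFC -0.42, edgeR adjusted p = 0.00135). Both groups were apart, and both hairpins lie in MCM7 on chromosome 7, from 99691391 to 99691470 for MIR93 and from 99691616 to 99691697 for MIR106B (GRCh37, minus strand). Without knockdown replicate 3, miR-93-5p was not DE (edgeR adjusted p = 0.0747). MiR-20a-5p had 4276, 3394 and 3304 CPM in the control libraries and 3310.5, 2848 and 2638 CPM in the knockdown libraries (LFC -0.32, edgeR adjusted p = 0.0180). MiR-20b-5p had 32.8, 27.2 and 23.0 CPM in the control libraries and 25.0, 16.0 and 13.7 CPM in the knockdown libraries (LFC -0.62, edgeR adjusted p = 0.0157), and miR-106a-5p went from 15.3 to 11.3 CPM (LFC -0.44, edgeR adjusted p = 0.107). In miR-20a-5p and miR-20b-5p the groups overlap, because knockdown replicate 1 lay within the control range. MiR-20a-5p was DE in 3 of the 6 fits that left out a library, not without control replicate 1 or knockdown replicate 2 or 3 (LFC -0.42 to -0.21, largest edgeR adjusted p = 0.179), nor with upper-quartile factors or in the fit over 12 libraries. MiR-20b-5p was not DE without knockdown replicate 2 or 3 (largest edgeR adjusted p = 0.196).

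The number of repressed members was 3 without knockdown replicate 2 and 2 without knockdown replicate 3, and with each alternative scaling between 4 and 6. Most other members of these clusters did not pass the threshold. In the miR-17-92 cluster 2 of 11 tested miRNAs fell (9.26% of all miRNAs tested), and miR-92a-3p stood at 3712 and 3998 CPM (LFC 0.11, edgeR adjusted p = 0.362). In the miR-106b-25 cluster miR-25-3p did not pass the threshold (LFC -0.19, edgeR adjusted p = 0.115) and miR-25-5p rose. MiR-25-5p had 156, 159 and 144 CPM in the control libraries and 218, 209.9 and 199 CPM in the knockdown libraries (LFC 0.45, edgeR adjusted p = 0.000680). Of the 12 tested guides of the 3 MYC-activated clusters, a list chosen with earlier results of these data known, 5 fell and 0 rose (9.26% and 12.7% of all miRNAs tested), all 5 of the miR-17 seed, and the median LFC was -0.30. This count was 2 without knockdown replicate 3 and 11 with total-count scaling.

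Members of smaller seed groups also fell. MiR-103a-3p and miR-107, from introns of PANK genes and known to target Dicer, share a seed and both were repressed, from 9676 to 7977 CPM (LFC -0.28, edgeR adjusted p = 0.0196) and from 701 to 572 CPM (LFC -0.30, edgeR adjusted p = 0.0137). Neither was DE without knockdown replicate 2 (largest edgeR adjusted p over the fits that left out 1 library 0.119 and 0.0808) or with upper-quartile scaling. MiR-103a-3p was also not DE without knockdown replicate 1, and miR-107 not without knockdown replicate 3 or in the fit over all 12 libraries. In the miR-15 and miR-16 seed, known for repressing cyclins, miR-497-5p fell from 92.2 to 69.3 CPM (LFC -0.41, edgeR adjusted p = 0.00713) and miR-424-5p from 105 to 81.8 CPM (LFC -0.36, edgeR adjusted p = 0.0226). MiR-16-5p, miR-15b-5p, miR-195-5p and miR-15a-5p did not pass the threshold (LFC -0.32 to 0.09). MiR-503-5p, next to miR-424 on the X chromosome, fell from 91.2 to 72.1 CPM (LFC -0.34, edgeR adjusted p = 0.0279). Neither miR-424-5p nor miR-503-5p was DE without control replicate 1 or knockdown replicate 2 (largest edgeR adjusted p 0.145 and 0.114), or in the fit over all 12 libraries. MiR-424-5p was also not DE without knockdown replicate 3, and miR-503-5p not without knockdown replicate 1 or with upper-quartile scaling. In the miR-532, miR-188, miR-500 and miR-660 cluster, in CLCN5 on the X chromosome, 1 of 14 tested members fell, no larger a share than the 9.26% of all miRNAs tested. This was miR-532-3p (LFC -0.41), which was not DE without knockdown replicate 3 (edgeR adjusted p = 0.0962) or in the fit over all 12 libraries.

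The let-7 family lay on the induced side. All 18 tested members had an LFC above 0 with TMM (median 0.22), of which 6 rose and 0 fell. Of all 551 miRNAs tested 296 had an LFC above 0 and 12.7% rose, and with total-count scaling 14 of the 18 let-7 members lay above 0 and 1 rose. Among the guides, known repressors of RAS and HMGA2, let-7f-5p had 17439, 19443 and 19019 CPM in the control libraries and 20723, 23524 and 24453 CPM in the knockdown libraries (LFC 0.30, edgeR adjusted p = 0.0180). Let-7i-5p had 21306, 26139 and 26786 CPM in the control libraries and 28818, 29554 and 30279.9 CPM in the knockdown libraries (LFC 0.26, edgeR adjusted p = 0.0461). Let-7c-5p had 364, 328 and 342 CPM in the control libraries and 413, 446 and 432 CPM in the knockdown libraries (LFC 0.32, edgeR adjusted p = 0.00713). In none of the 3 did the groups overlap. Let-7i-5p was DE in 1 of the 6 fits that left out a library, with an LFC of 0.15 without control replicate 1 (edgeR adjusted p = 0.226), and in 2 of the 8 other settings, not with DESeq2 size factors, total-count or upper-quartile scaling, either other filter or all 12 libraries. In the fits that left out a library, let-7f-5p was not DE without knockdown replicate 2 or 3, and let-7c-5p not without control replicate 2 or knockdown replicate 2. Let-7f-5p was also not DE with total-count or upper-quartile scaling or with all 12 libraries, and let-7c-5p not with total-count scaling. Let-7g-5p rose from 14287 to 16852 CPM at the edge of the threshold (LFC 0.24, edgeR adjusted p = 0.04999), and let-7a-5p, the second let-7 guide in abundance, did not pass it (LFC 0.21, edgeR adjusted p = 0.0887). Of the 3p arms, let-7a-3p had 554, 555 and 536 CPM in the control libraries and 711, 714 and 652 CPM in the knockdown libraries (LFC 0.34, edgeR adjusted p = 0.00370), and let-7b-3p had 20.0, 23.1 and 21.0 CPM in the control libraries and 29.9, 36.3 and 38.6 CPM in the knockdown libraries (LFC 0.71, edgeR adjusted p = 0.000790). Both share a seed and were apart between the groups. The count of induced let-7 members was 2 without knockdown replicate 2 and 3 without control replicate 2 or knockdown replicate 3.

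The study lists miRNAs that earlier work found to be repressed by MYC, and most of them are the let-7 guides just described. With TMM, 4 of the 13 tested rose (12.7% of all miRNAs tested rose), all let-7 guides, and 12 of 13 lay above 0 (median LFC 0.20), while with total-count scaling 9 of 13 lay above 0, 0 rose and 1 fell. Without knockdown replicate 2, 0 of them rose, and without control replicate 2 or knockdown replicate 3, 1 did. MiR-26a-5p (LFC 0.19, edgeR adjusted p = 0.125), miR-16-5p (LFC 0.09) and miR-34a-5p (LFC 0.20) did not pass the threshold, and miR-15a-5p was the member below 0 (LFC -0.32, edgeR adjusted p = 0.125).

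The miR-30 family, whose 5p guides are known to restrain mesenchymal genes such as SNAI1, had its induced members among the 3p arms, which have other seeds. Of 6 tested 3p arms 5 rose (median LFC 0.37), and of 5 tested 5p arms 0 did (median LFC 0.11). Over all miRNAs 37 of 244 tested 3p arms and 20 of 234 tested 5p arms rose. All 6 3p arms lay above 0 under each alternative, with 2 to 5 of them called. MiR-30c-2-3p had 88.9, 106 and 96.0 CPM in the control libraries and 147, 139 and 164 CPM in the knockdown libraries (LFC 0.63, standard error 0.10, edgeR adjusted p = 3.37e-05). MiR-30e-3p had 686, 693 and 684 CPM in the control libraries and 862, 949 and 878 CPM in the knockdown libraries (LFC 0.38, edgeR adjusted p = 0.00102), while miR-30e-5p had 8042, 8782 and 8611 CPM in the control libraries and 8437, 9759.9 and 10791 CPM in the knockdown libraries (LFC 0.19, edgeR adjusted p = 0.132). The 3p groups were apart and the 5p groups overlap. MiR-30a-3p, miR-30c-1-3p and miR-30d-3p rose by an LFC of 0.35 to 0.37, and miR-30b-3p had an LFC of 0.34 (edgeR adjusted p = 0.126). MiR-30d-3p was DE in 1 of the 6 fits that left out a library (largest edgeR adjusted p = 0.103).

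**Figure D4:**
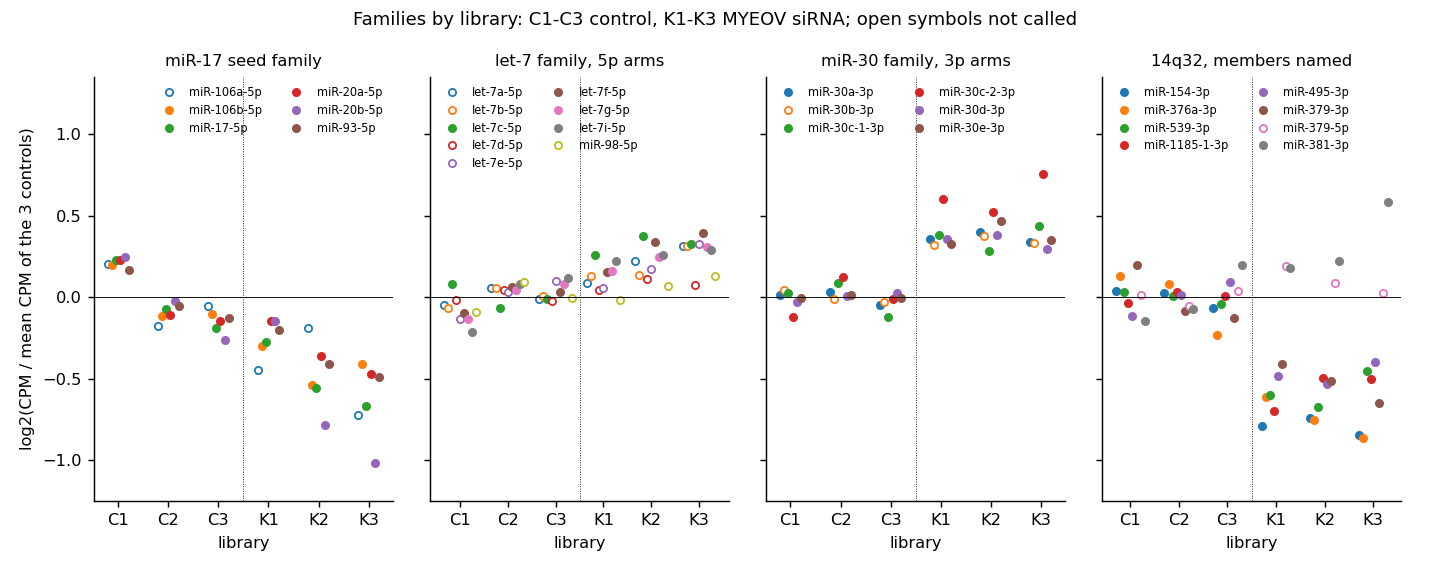
Log2 of the CPM over the mean of the 3 controls, for each miRNA in each PANC-1 library (C1 to C3 control, K1 to K3 MYEOV siRNA), in 4 panels. Filled symbols are DE. In the miR-17 panel C1 is the highest library for the DE members, the let-7 guides and the miR-30 3p arms lie mostly above 0 in K1 to K3, and in the 14q32 panel the repressed 3p arms lie below 0 in K1 to K3 while miR-381-3p lies above 0, most in K3.

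Other induced miRNAs came from several loci. MiR-148a-3p, known to target DNMT1, had 630.0, 762 and 1009 CPM in the control libraries and 1039, 1168 and 1350.4 CPM in the knockdown libraries (LFC 0.57, edgeR adjusted p = 0.000473). Each knockdown library lay above each control, with little distance between knockdown replicate 1 and control replicate 3. Its minor arm miR-148a-5p rose from 11.3 to 20.6 CPM (LFC 0.90). Neither arm was DE without knockdown replicate 3 (edgeR adjusted p = 0.0626 and 0.0627), while miR-148b-3p and miR-152-3p, of the same seed as miR-148a-3p, had LFCs of -0.04 and 0.00. MiR-125b-1-3p had 844, 994 and 986 CPM in the control libraries and 1330.1, 1267 and 1388 CPM in the knockdown libraries (LFC 0.50, edgeR adjusted p = 7.38e-05), and its partner miR-125b-5p, with a mean of 7967 CPM in the controls, an LFC of -0.04. MiR-32-3p had 106, 108 and 112 CPM in the control libraries and 151, 150.2 and 159 CPM in the knockdown libraries (LFC 0.50, edgeR adjusted p = 0.000274) and miR-32-5p an LFC of 0.04. MiR-16-2-3p rose from 1159 to 1523 CPM (LFC 0.39, edgeR adjusted p = 0.000929) and miR-195-3p from 41.2 to 66.4 CPM (LFC 0.69, edgeR adjusted p = 0.000185), both 3p arms of the miR-15 and miR-16 family. The 5p arms had means of 1259 and 1342 CPM (miR-16-5p) and 54.8 and 55.8 CPM (miR-195-5p) and did not pass the threshold. MiR-378d rose from 95.2 to 130.4 CPM (LFC 0.46, edgeR adjusted p = 0.00252) but was not DE without knockdown replicate 3 (edgeR adjusted p = 0.0574), and the related miR-378a-3p, miR-378c and miR-378e, named after their values were seen, had LFCs of 0.41, 0.34 and 0.85 and were DE. MiR-378a-5p (LFC 0.26) and miR-378i (LFC 0.43), at a mean of 2.90 CPM in the controls, did not pass the threshold. MiR-26a-2-3p rose from 27.1 to 40.0 CPM (LFC 0.57, edgeR adjusted p = 0.00363), and this call held in each fit that left out 1 library.

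Calls near the threshold were less stable. MiR-151a-3p had 10935, 11899.7 and 14844 CPM in the control libraries and 15605, 14765 and 15173 CPM in the knockdown libraries (LFC 0.27, edgeR adjusted p = 0.0388), with overlapping groups. MiR-23b-3p had 954, 873 and 884 CPM in the control libraries and 759, 779 and 783 CPM in the knockdown libraries (LFC -0.22, edgeR adjusted p = 0.0463). Each was DE in 1 of the 6 fits that left out a library. MiR-429, of the miR-200 family of epithelial cells, fell from 31.3 to 23.2 CPM (LFC -0.43, edgeR adjusted p = 0.0403), and miR-181b-3p rose from 28.5 to 38.4 CPM (LFC 0.43, edgeR adjusted p = 0.0279). Both were DE in 2 of these 6 fits.

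The arms were then compared within hairpins, where the scaling of a library cancels. The log2 ratio of the 5p to the 3p count was tested with limma for 150 hairpins with both arms tested, paired by miRNA name. In 122 of these both arms matched the same single hairpin in RefSeq, and in 20 an arm was not matched there. In 8 an arm came from several hairpins or the arms from different ones, as in miR-181a, whose 5p count is summed over MIR181A1 and MIR181A2 and whose 3p arm comes from MIR181A1, so that the ratio there is not that of 1 hairpin. Of the 150, 0 passed an adjusted p under 0.05 (0.0%), with a smallest adjusted p of 0.0517 and 34 at an unadjusted p under 0.05. The count depended on the test, since edgeR's test of arm by treatment called 25 of the same 150 (a test added after the limma result was seen), limma with a mean-variance trend 12, and limma with a pseudocount of 5 called 13. For 44 hairpins (29.3%) the control and knockdown ratios did not overlap, and in 32 of these the minor arm gained. Over all 150, the minor arm gained on the major arm in 102 (median 0.14 on the log2 scale). By single arms, 26 minor arms rose and 7 fell, and 16 major arms rose and 20 fell, a split that turned to 13 up and 19 down for minor arms and 3 up and 53 down for major arms with total-count scaling.

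MiR-27a gave the smallest p-value in PANC-1. Its minor arm miR-27a-5p had 419, 434 and 429 CPM in the control libraries and 885, 1035 and 909 CPM in the knockdown libraries, a 2.21-fold rise (LFC 1.14, standard error 0.09, edgeR adjusted p = 4.78e-12). The 3 knockdown libraries stood far above the controls. The major arm miR-27a-3p had 10049.7, 8769 and 8844 CPM in the control libraries and 12280.0, 10999.7 and 9968 CPM in the knockdown libraries (LFC 0.27, edgeR adjusted p = 0.0341), with overlapping groups, and it was DE in 2 of the 6 fits that left out a library (largest edgeR adjusted p = 0.172). MiR-27a-5p made up 4.002%, 4.71% and 4.63% of the hairpin's reads in the control and 6.72%, 8.60% and 8.35% in the knockdown libraries, a shift of the log2 ratio of 0.88 ± 0.16 (SE) toward the minor arm (limma adjusted p = 0.0517, edgeR adjusted p = 3.25e-08). The hairpin lies on chromosome 19 from 13947254 to 13947331 (GRCh37, minus strand) in MIR23AHG. Its neighbours miR-23a-3p and miR-24-3p had LFCs of -0.07 and 0.00.

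In the paralogous hairpin on chromosome 9, the minor arm was induced and the major arm was not DE. MiR-27b-5p had 161, 148 and 147 CPM in the control libraries and 228, 240.2 and 226 CPM in the knockdown libraries (LFC 0.61, edgeR adjusted p = 1.05e-05), and miR-27b-3p had 21891, 19465 and 21017 CPM in the control libraries and 20480.1, 21020.0 and 21837 CPM in the knockdown libraries (LFC 0.02, edgeR adjusted p = 0.886). The minor arm was apart between the groups and the major arm was not. MiR-181a-3p, the minor arm of miR-181a, had 345, 285 and 266 CPM in the control libraries and 433, 500.1 and 490.4 CPM in the knockdown libraries (LFC 0.67, edgeR adjusted p = 6.57e-06), and miR-181a-5p, known from lymphocyte development, had 2191, 1956 and 1850.3 CPM in the control libraries and 1886, 1999 and 2195 CPM in the knockdown libraries (LFC 0.02, edgeR adjusted p = 0.899). In the miR-181 family 3 of 5 tested 3p arms rose and 0 of 4 5p arms did, against 37 of 244 and 20 of 234 among all miRNAs tested. MiR-181b-3p, 1 of the 3, was DE in 2 of the 6 fits that left out a library (largest edgeR adjusted p = 0.156). MiR-200a-5p had 6.38, 8.45 and 9.05 CPM in the control libraries and 16.1, 15.0 and 12.8 CPM in the knockdown libraries (LFC 0.87, edgeR adjusted p = 0.00363), and miR-200a-3p had 93.1, 77.6 and 84.3 CPM in the control libraries and 86.4, 80.8 and 79.6 CPM in the knockdown libraries (LFC -0.05, edgeR adjusted p = 0.791). Here the induced 5p arm reached at most 16.1 CPM. In 14q32, the shift of the ratio favoured the 5p arm in 19 of 29 hairpins, against 54 of 121 outside 14q32, a difference that was not tested. In miR-154 and miR-485 the minor 5p arm gained (0.81 ± 0.14 (SE) and 0.57 ± 0.14 (SE)), and in miR-379 the minor 3p arm lost (0.62 ± 0.15 (SE)).

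**Figure D5:**
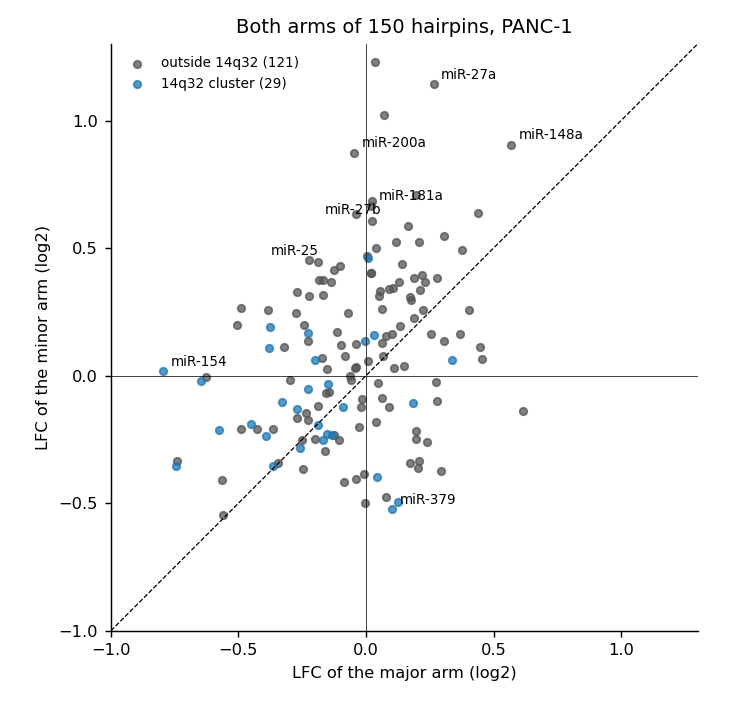
LFC of the minor arm against LFC of the major arm for 150 hairpins in PANC-1, with 29 hairpins of 14q32 in blue, and the dashed line marking equal change. More points lie above the line (102) than below it (48), miR-27a, miR-200a, miR-181a and miR-27b stand between -0.05 and 0.27 on the major and between 0.61 and 1.14 on the minor arm, and miR-154 stands at -0.79 on the major and 0.02 on the minor arm.

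By chromosome, 23 of the 76 miRNAs with a single position on chromosome 14 fell and 2 rose, and on X 4 of 36 fell and 0 rose. The chromosome 14 set overlaps the 14q32 cluster and is not the same set. It leaves out miR-376a-3p and miR-329-3p, which have more than 1 position, and includes miRNAs outside the cluster. Chromosome 9 had 6 of 21 induced and 1 repressed, against 12.7% and 9.26% of all miRNAs tested. Some clusters gave no DE member. In the miR-183, miR-96 and miR-182 cluster, all 6 tested members had an LFC above 0 with TMM and 4 of 6 with total-count scaling, and among the arms of miR-221 and miR-222, and among those of miR-191 and miR-425, 0 of 4 each were DE. In the primate-specific C19MC cluster, 3 of the 41 listed members were tested and 0 were DE. In the miR-548 family, whose hairpins derive from transposons and whose members can share reads, 2 of 24 rose and 1 fell. These shares are no larger than the 12.7% and 9.26% of all miRNAs tested. Of the 6 fits that left out a library, miR-548f-3p was DE in 4, miR-548ah-3p in 1 and miR-548ab in 2.

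The DE miRNAs under 100 CPM with the largest LFC in each direction had wide errors. MiR-5699-3p had 1.10, 1.13 and 1.81 CPM in the control libraries and 2.86, 3.16 and 3.31 CPM in the knockdown libraries (LFC 1.23, standard error 0.40, edgeR adjusted p = 0.0279), and miR-7704 had 3.08, 2.44 and 3.10 CPM in the control libraries and 4.95, 5.79 and 6.83 CPM in the knockdown libraries (LFC 1.04, edgeR adjusted p = 0.0137). MiR-3942-3p had 4.62, 3.19 and 4.14 CPM in the control libraries and 2.34, 1.58 and 1.76 CPM in the knockdown libraries (LFC -1.05, edgeR adjusted p = 0.0344), and miR-548ab had 9.68, 5.26 and 5.69 CPM in the control libraries and 3.64, 3.68 and 4.41 CPM in the knockdown libraries (LFC -0.80, edgeR adjusted p = 0.0495). All 4 stayed below 10 CPM and none was DE without knockdown replicate 3 (largest edgeR adjusted p over the fits that left out 1 library 0.0838 to 0.328). MiR-1268b is miR-1268a with further bases at the 3′ end, and they have near-equal counts (LFC 0.94 and 0.96), so their reads may not be separable.

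Sequence features were compared last. Of 489 tested miRNAs with a RefSeq sequence, the median GC content was 47.6%, and it was 50.0% in 62 induced, 43.5% in 49 repressed and 47.8% in the 26 repressed miRNAs outside 14q32. A 3′ terminal U was found in 61.2% of repressed, 29.0% of induced and 38.4% of all tested miRNAs. In the 26 repressed miRNAs outside 14q32 the share was 38.5%, near the value over all. Across miRNAs, the LFC correlated weakly with GC content (Pearson's r 0.12, Spearman's rho 0.08, n = 489, the points sharing the same 6 libraries), and among the 197 miRNAs of at least 100 CPM these were 0.04 and -0.01.

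The question of what changed in PANC-1 but not in AsPC-1 was tested as the difference of the LFCs in 1 edgeR fit over all 12 libraries. Of 650 miRNAs tested, 2 passed (0.308%), and 74 had an unadjusted p under 0.05. MiR-30c-2-3p had 77.9, 93.2 and 84.7 CPM in the PANC-1 controls and 129.8, 123 and 143 CPM in the PANC-1 knockdown libraries of that fit. In AsPC-1 it had 50.9, 44.6 and 48.3 CPM and 40.8, 34.8 and 42.3 CPM. All PANC-1 knockdown values were higher and all AsPC-1 knockdown values lower than their controls, and the LFC differed by 0.91 (standard error 0.17, edgeR adjusted p = 0.00306). MiR-1303, whose hairpin lies within LARP1, had 624, 729 and 758 CPM and 790.4, 804 and 811 CPM in PANC-1, and 487, 556 and 595 CPM and 350.0, 401 and 389 CPM in AsPC-1. Its LFC differed by 0.71 (standard error 0.14, edgeR adjusted p = 0.00467), although in PANC-1 alone it did not pass the threshold (LFC 0.19, edgeR adjusted p = 0.108). The AsPC-1 LFC depended on the fit. For miR-30c-2-3p it was -0.28 in the fit over 12 libraries and -0.18 in a fit of AsPC-1 alone, and for miR-1303 -0.52 and -0.43. The differences were 0.74 and 0.55 with DESeq2 size factors, and 0.68 and 0.49 with total-count scaling. With total-count scaling neither difference passed the threshold (edgeR adjusted p = 0.0622 and 0.0875), and miR-1303 also missed the threshold with DESeq2 size factors in edgeR (0.0717) and without AsPC-1 knockdown replicate 1 (0.0646).

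The number of line differences moved with single libraries, to 25 without AsPC-1 control replicate 1, 20 without AsPC-1 control replicate 2, 13 without PANC-1 control replicate 3, 5 without PANC-1 control replicate 1 and 1 without AsPC-1 knockdown replicate 1. Other small p-values were those of miR-539-3p (difference -1.72, edgeR adjusted p = 0.0838), which had 0.475 to 1.58 CPM in AsPC-1, miR-671-5p (1.25, 0.0564), miR-92a-1-5p (-0.65, 0.0564), miR-148a-3p (0.76, 0.0917) and miR-27a-5p (0.45, 0.104). MiR-539-3p and miR-92a-1-5p passed the threshold with total-count scaling and with DESeq2 size factors, and either or both in 5 of the 12 fits that left out 1 library. MiR-671-5p passed it with the filter of 1 CPM in 3 libraries and in 7 of those 12 fits. Of the 121 DE miRNAs of PANC-1, 31 did not reach the count filter in the fit of AsPC-1 alone, 19 of them from 14q32, which there summed to 45.4 to 61.0 unscaled CPM against 81700 to 91860 in PANC-1. Of the remaining 90, 27 (30.0%) were DE in AsPC-1 too, where 11.4% of all miRNAs tested were DE, with the same direction in each. These are 22.3% of all PANC-1 calls and 47.4% of the AsPC-1 calls. In AsPC-1 alone, the LFC was 0.79 for miR-27a-5p, 0.34 for miR-27b-5p and 0.48 for miR-25-5p. It was -0.46 for miR-17-5p, -0.16 for miR-20a-5p, -0.40 for miR-93-5p and -0.32 for miR-106b-5p, and miR-20b-5p did not reach the filter. Of 14q32, miR-543 (0.31), miR-369-3p (0.36) and miR-495-3p (0.07) lay above 0 there, unlike in PANC-1.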

How the data were processed

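The series holds 12 small RNA libraries, 6 of them from AsPC-1 and 6 from PANC-1, and the latter are described here. Per the labels, reads were of 50 nt. The authors aligned them with Bowtie to hg19 (Bowtie version not given in the sources used here) and deposited raw read counts per mature miRNA and library, in which a miRNA that is not listed was taken as 0. No molecular identifiers are mentioned in the sources used here, so counts are taken as reads and not molecules.

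Counts were tested with edgeR 4.0.16 (R 4.3.3), using filterByExpr with a minimum count of 10, TMM factors and the quasi-likelihood test on the 6 PANC-1 libraries, with Benjamini-Hochberg adjustment and a threshold of 0.05. The standard error is the absolute LFC over the square root of the F statistic. Arm ratios were tested with limma 3.58.1 on log2 ratios with a pseudocount of 0.5, and the difference between lines as an interaction in edgeR over 12 libraries. Scripts were tested on simulated data. Alternatives were total-count, DESeq2 (1.42.0) and upper-quartile scaling, other filters, DESeq2's test, a fit over all 12 libraries, a replicate block, other arm tests and leaving out each library. The edgeR arm test and the counts of called members per list under each alternative were added after the data were seen.

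The members and lists were chosen with earlier results of these data known. Named miRNAs were the 10 DE miRNAs of at least 100 CPM with the largest LFC in each direction, the 10 most abundant, up to 2 called members of each list and direction with the range of the list, the 8 hairpins with the smallest p in the arm test, up to 10 miRNAs of the line difference, the 2 most extreme called miRNAs under 100 CPM in each direction, miR-17-5p, miR-93-5p and miR-21-5p, and the opposite arms. Others were named after their values were seen. Of 1733 miRNA names, 1534 matched RefSeq. Hairpin positions are GRCh37 (GENCODE), and sequences come from RefSeq (GRCh38.p14).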

Additional observations from a re-analysis of the deposited data

Results flagged for a closer look

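MiR-30c-2-3p was flagged because its response to MYEOV siRNA differed between the lines. In the fit over 12 libraries its LFC was 0.63 in PANC-1 and -0.28 in AsPC-1 (-0.18 in AsPC-1 alone), a difference of 0.91 (edgeR adjusted p = 0.00306), with all 3 knockdown libraries above their controls in PANC-1 and all 3 below in AsPC-1. MiR-1303 was flagged for the same reason. Its LFC was 0.19 in PANC-1 and -0.52 in AsPC-1 (-0.43 in AsPC-1 alone), a difference of 0.71 (edgeR adjusted p = 0.00467). The differences were 0.74 and 0.55 with DESeq2 size factors, where miR-1303 did not pass the threshold, and 0.68 and 0.49 with total-count scaling, where neither did.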

How the results depend on the processing

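Against 121 DE miRNAs (70 higher, 51 lower), a fit over all 12 libraries gave 67 (42 higher, 25 lower), total-count scaling 143 (26 higher, 117 lower, 77 shared with the 121) and upper-quartile factors 94 (29 lower, 91 shared). Leaving out 1 library gave 55 to 129 DE miRNAs, 30 to 65 higher and 25 to 64 lower. For 0 arm ratios in limma, a pseudocount of 5 gave 13, a minimum of 50 counts in both arms 26, the trend 12 and edgeR 25. For 2 line differences, leaving out 1 library gave 1 to 25. The replicate block gave 153 DE miRNAs, of which 120 were shared with the fit without it. The methods state no pairing, so the numbers were not taken as pairs. Deviations of same-numbered libraries correlated by 0.0509, 0.0290 and 0.139, and those of other library pairs by -0.125 to 0.0759. Since these weigh all miRNAs tested alike, including those of low count, they cannot exclude a pairing. The next counts leave out miRNAs named only as opposite arms, which were not followed over the alternatives. Of 55 named DE miRNAs, 27 kept their call in all 6 fits without 1 library, 32 in all 8 other alternatives and 26 in all of these. Among the named miRNAs that were followed, the LFC changed sign only in ones that were not DE. With total-count scaling it was -0.037 for miR-100-5p, -0.13 for miR-154-5p, -0.13 for miR-181a-5p, -0.12 for miR-27b-3p, -0.039 for miR-379-5p and -0.081 for miR-671-5p. With a filter of 1 CPM it was -0.0065 for miR-154-5p and -0.0026 for miR-181a-5p, and with upper-quartile factors 0.00044 for miR-200a-3p. Without 1 library it ranged from -0.057 to 0.096 for miR-154-5p, from -0.048 to 0.077 for miR-181a-5p, from -0.11 to 0.011 for miR-200a-3p, from -0.025 to 0.047 for miR-27b-3p, from -0.081 to 0.18 for miR-671-5p and from -0.16 to 0.018 for miR-7-5p. Except where an alternative tests fewer libraries or more miRNAs, the cause was not tested. Below 10 CPM, the standard error of the LFC limited calls to large changes.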
